A study of Mus musculus with 13 samples.

Results

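The colon and the ileum of mice that received no antibiotic were compared across all genes that the array names. The comparison used 7 of the 13 arrays of the study, 4 of colon and 3 of ileum, chosen by their labels. It covered the 19572 of 28846 probe sets that carry exactly 1 gene symbol, which stand for 19505 genes. The mice were FVB females carrying a mammary carcinoma with human HER2, which is a receptor tyrosine kinase. The carcinoma was shared by all groups, so tissue from tumour-free mice was not part of the comparison. The other 6 arrays, 3 of each tissue, came from mice that drank vancomycin, a glycopeptide antibiotic, at 200 mg/L from 4 weeks of age, and mice were killed at 9 weeks with tumours of 150 mm3. The labels do not say from when the 9 weeks count. The labels name no segment within the colon or the ileum, and state that the organs were washed but not that mucosa was separated from muscle or attached fat.

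The small intestine digests and absorbs nutrients across a surface of villi, and its last part, the ileum, reclaims bile acids and vitamin B12. The colon has no villi, recovers salt and water, carries a thicker mucus layer and houses most of the gut bacteria. Along this axis the epithelium, the muscle and the resident immune cells keep regional gene programmes that are set in part by Hox and GATA transcription factors in development and by nuclear receptors such as HNF4 in the adult.

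Expression is given as the deposited log2 value of a probe set, in the order of colon replicates 1, 2, 3 and 5 and of ileum replicates 1, 2 and 3. A difference is the mean of the colon arrays minus the mean of the ileum arrays, with its standard error (SE), so a positive value means higher in colon. It came from a limma fit of all 13 arrays, and a gene was called when its p-value, adjusted by Benjamini-Hochberg over 19572 probe sets, was under 0.05. In refits of this difference with 1 array left out, colon replicate 1 was duplicated, or colon replicate 2 where colon replicate 1 was left out. The duplicate counted as a further array, so these refits do not show the effect of the omission alone. The labels do not say that the arrays came from separate mice, so the p-values rest on a spread between samples that may be technical, and the number of arrays limits the precision. In pieces of whole organ, fewer cells of a type and less RNA per cell cannot be told apart. Some values lay above 16, the log2 limit of a 16-bit scan, in 238 named probe sets, so differences are differences on the deposited scale and not exact intensity ratios.

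Of the 19572 probe sets 20.5% were called, and of the 19505 genes, each by 1 probe set, 10.9% were called colon higher and 9.61% ileum higher. The small excess of colon calls turned with the scaling, since 53.3% of calls were colon higher as deposited and 49.4% after each array was centred on its median. Large differences leaned to the ileum: 47 probe sets called colon higher and 137 called ileum higher differed by at least 4, and 17 and 56 differed by at least 6. The median difference over all genes was 0.04 and the median absolute difference 0.23. The 4 colon and 3 ileum arrays did not overlap in 32.2% of probe sets, called or not, so absence of overlap was common. The markers went with the tissue labels: the 6 colon markers (Car1, Aqp8, Hoxb13, Slc26a3, Car4 and Insl5) were all higher in colon and the 8 ileal markers (Fabp6, Slc10a2, Fgf15, Sis, Apoa4, Npc1l1, Lyz1 and Mmp7) were all higher in ileum. The mean correlation of an array with its own group lay between 0.9899 and 0.9907 in colon and between 0.9942 and 0.9946 in ileum. A vancomycin ileum array (replicate 11) stood apart from its group, with a mean correlation of 0.977. With that array left out and colon replicate 1 duplicated, 5343 probe sets were called in place of 4020.

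Digestive enzymes of the brush border, the microvillus surface on which sugars, peptides and phosphates are split, were higher in ileum. Of 22 measured enzymes 17 were called, 0 with colon higher, and their median difference was -3.40. Enpep, glutamyl aminopeptidase, read 7.50, 6.40, 7.01 and 7.85 in colon and 15.53, 15.14 and 15.47 in ileum. Its difference was -8.19 ± 0.28 (adjusted p = 8.88e-11), and no colon array came near the lowest ileum array. Treh, which splits the sugar trehalose, read 6.71, 7.04, 6.95 and 6.97 in colon and 12.87, 13.17 and 12.79 in ileum. Mme, the endopeptidase neprilysin, differed by -7.26 ± 0.51 and Vnn1, a pantetheinase that serves vitamin B5 recycling, by -5.78 ± 0.44. Sis, sucrase-isomaltase, was near-uniform within each tissue, between 6.14 and 6.55 in colon and between 15.00 and 15.36 in ileum. The smallest differences among the called enzymes were those of Dpp4 at -2.97, the maltase Mgam at -2.65, the meprins Mep1b and Mep1a at -2.63 and -2.20, Akp3 at -1.92 and Dpep1 at -1.53.

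Intestinal alkaline phosphatase, Alpi, was the enzyme with the widest spread in colon. Its values were 11.61, 7.42, 10.41 and 9.54 in colon and 15.66, 15.50 and 15.58 in ileum, so that colon replicate 1 was the highest and replicate 2 the lowest colon array while the ileum arrays lay close together. Its difference was -5.83 ± 0.81 (adjusted p = 0.000115), and the tissues did not overlap. Lct, the lactase that splits milk sugar, was not called, with 6.67, 6.58, 6.40 and 6.09 in colon and 6.13, 9.39 and 6.05 in ileum. Ileum replicate 2 alone was high for it, and the other ileum arrays read 6.13 and 6.05 beside a lowest colon value of 6.09. Tmprss15, enteropeptidase, and the peptidases Folh1 and Naalad2 also missed the threshold, with differences between -0.16 and 0.20.

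Carriers of sugars, amino acids and nucleosides followed the same direction, with 19 of 25 called ileum higher, 2 colon higher and a median of -3.04. Slc6a19, the main apical carrier of neutral amino acids, read 8.38, 8.39, 8.71 and 9.53 in colon and 16.43, 16.68 and 16.52 in ileum. The subunits of the cystine and dibasic amino acid carrier both stood higher in ileum, the heavy chain Slc3a1 at -6.90 ± 0.46 and the light chain Slc7a9 at -6.42 ± 0.28. Slc7a8 and Slc7a7, basolateral carriers that pass amino acids on to the blood, differed by -4.05 ± 0.31 and -4.01 ± 0.43. The nucleoside carrier Slc28a2 differed by -5.36 ± 0.58. The peptide carrier Slc15a1 showed a smaller difference of -1.90 ± 0.46 (adjusted p = 0.00868), with every colon array at 13.87 or above.

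Among sugar carriers Slc5a1, the apical sodium-glucose cotransporter, read 10.95, 11.29, 10.60 and 11.27 in colon and 14.51, 14.21 and 14.37 in ileum. Slc2a5, the fructose carrier, differed by -4.35 ± 0.45. Slc2a2, the basolateral glucose carrier, was called at -2.24 ± 0.55 (adjusted p = 0.00925), but ileum replicate 2 stood at 10.66 against 7.82 and 8.28. The Slc2a2 difference was -1.39 (adjusted p = 0.0161) with ileum replicate 2 left out and colon replicate 1 duplicated. The exceptions were Slc2a1, the glucose carrier of most cell types, and Slc6a14, a carrier of neutral and cationic amino acids. Slc2a1 read 16.49, 16.71, 16.54 and 16.54 in colon and 14.28, 13.99 and 14.12 in ileum, a difference of 2.44 ± 0.19. Slc6a14 read 13.87, 14.09, 13.95 and 13.77 in colon and 11.16, 7.38 and 10.01 in ileum; every colon array exceeded every ileum array, and ileum replicate 2 was the lowest.

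Genes of fat absorption and lipoprotein assembly were higher in ileum in 20 of 25 cases, with 1 higher in colon and a median of -3.13. Mttp, which loads lipid onto apolipoprotein B, read 6.94, 7.23, 7.55 and 8.03 in colon and 15.53, 15.81 and 15.60 in ileum. Apob itself differed by -6.40 ± 0.41 (adjusted p = 6.02e-08). Slc27a4, a fatty acid carrier and acyl-CoA synthetase, differed by -5.30 ± 0.41 and Creb3l3, a transcription factor of lipoprotein genes, by -4.20 ± 0.55. The partner transporters that return plant sterols to the lumen were higher in ileum together, with Abcg8 at -5.12 ± 0.35 beside Abcg5 at -8.54 ± 0.38. The sterol uptake carrier Npc1l1 was flat within the ileum, between 14.91 and 15.03, and ranged from 5.5 to 6.66 in colon. Scarb1, a receptor for high-density lipoprotein, was the member higher in colon, by 0.85 ± 0.21.

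Apoa4 and Fabp1, both most abundant in the upper small intestine, varied within the ileum. Apoa4 read 6.78, 7.02, 7.14 and 7.10 in colon and 11.37, 13.10 and 12.36 in ileum and Fabp1 6.86, 6.25, 5.69 and 6.19 in colon and 8.5, 11.26 and 8.33 in ileum. For both genes ileum replicate 2 was the highest array of the 7, and no ileum array overlapped the colon. Apoa4 differed by -5.27 ± 0.49 and Fabp1 by -3.12 ± 0.61 (adjusted p = 0.00196). The Fabp1 difference was -2.04 (adjusted p = 0.00424) with ileum replicate 2 left out and colon replicate 1 duplicated. Cd36, which takes up fatty acids in enterocytes and also in fat cells, differed by -2.15 ± 0.50. Markers of fat cells moved the same way: 6 of 7 measured adipocyte genes were called ileum higher, among them the hormones Adipoq at -3.85 ± 0.68, Retn at -4.21 ± 0.53 and Lep at -2.51 ± 0.50. The mean of the 7 genes lay between 6.97 and 7.99 in colon and between 9.69 and 10.17 in ileum. The lipase Lipe, the glycerol channel Aqp7 and the carbonic anhydrase Car3, which fat cells express strongly, also stood higher in ileum, at -3.47 ± 0.23, -6.28 ± 0.44 and -3.67 ± 0.56. The part of fat tissue in these results was not tested.

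Bile acid handling was higher in ileum in 10 of 14 genes and higher in colon in 1, with a median of -2.19. The genes of the route through the enterocyte are the apical importer Slc10a2, the cytosolic carrier Fabp6 and the basolateral exporter made of Slc51a and Slc51b. Slc10a2 read 9.25, 9.67, 8.28 and 8.64 in colon and 15.98, 15.67 and 16.08 in ileum, a difference of -6.95 ± 0.31. Fabp6 was at 18.04 to 18.18 in ileum, while the colon arrays spread from 9.91 in replicate 1 to 13.57 in replicate 5, giving -6.71 ± 0.72 (adjusted p = 1.05e-05). Slc51a read 10.10, 6.90, 8.18 and 8.77 in colon and 16.43, 16.37 and 16.52 in ileum. Slc51b differed by -5.94 ± 0.34, with its highest colon value also in replicate 1 and its lowest also in replicate 2.

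The receptor that senses bile acids, Nr1h4, was higher in ileum with a smaller difference of -2.13 ± 0.20. Among its targets, the hormone Fgf15, which tells the liver to lower bile acid synthesis, read 4.71, 4.82, 5.10 and 4.60 in colon and 8.06, 10.45 and 10.56 in ileum. The repressor Nr0b2 read 5.76, 5.98, 6.12 and 5.93 in colon and 6.75, 8.98 and 8.86 in ileum. In both genes ileum replicate 1 was the lowest ileum array, and both were called, with differences of -4.88 ± 0.45 and -2.25 ± 0.39. Abcc2, an apical exporter of conjugates, differed by -6.73 ± 0.35, whereas Abcc3, a basolateral exporter, was the 1 member higher in colon, by 0.87 ± 0.19.

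Vitamin and mineral genes were split, with 12 of 29 called ileum higher, 2 colon higher and 15 not called. The receptor for vitamin B12 bound to intrinsic factor joins Cubn and Amn. Cubn was held between 16.87 and 16.92 in ileum, and Amn read 7.21, 7.16, 7.44 and 7.29 in colon and 11.76, 12.19 and 12.31 in ileum. The B12 carrier protein Tcn2 differed by -2.54 ± 0.26. Slc34a2, a phosphate carrier, and Rbp2, which binds retinol in enterocytes, differed by -3.97 ± 0.45 and -3.79 ± 0.61. The other phosphate carrier Slc20a1 ran the opposite way with 10.74, 12.58, 11.81 and 11.93 in colon and 8.36, 8.5 and 8.86 in ileum, a difference of 3.19 ± 0.45. Among calcium genes the binding protein S100g was higher in ileum at -3.05 ± 0.23, while the channel Trpv6 had a difference of 0.50 ± 0.18 (adjusted p = 0.0634) and was not called. The zinc importer Slc39a4 had -1.11 ± 0.38 (adjusted p = 0.0523) and the iron importer Slc11a2 -0.58 ± 0.20 (adjusted p = 0.0585), neither of them called. Trpv6 passed the threshold in 6 of 15 alternatives (adjusted p from 0.0151 to 0.0457). Slc39a4 passed it in 6 (adjusted p from 0.000118 to 0.0471) and Slc11a2 in 7 (adjusted p from 0.00548 to 0.0481). Some of these were refits that left out 1 array and duplicated a colon array. The array left out was colon replicate 1 or 5 or vancomycin ileum replicate 11 for Trpv6. For Slc39a4 it was vancomycin ileum replicate 11, and for Slc11a2 colon replicate 2, 3 or 5 or vancomycin ileum replicate 11.

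**Figure D1:**
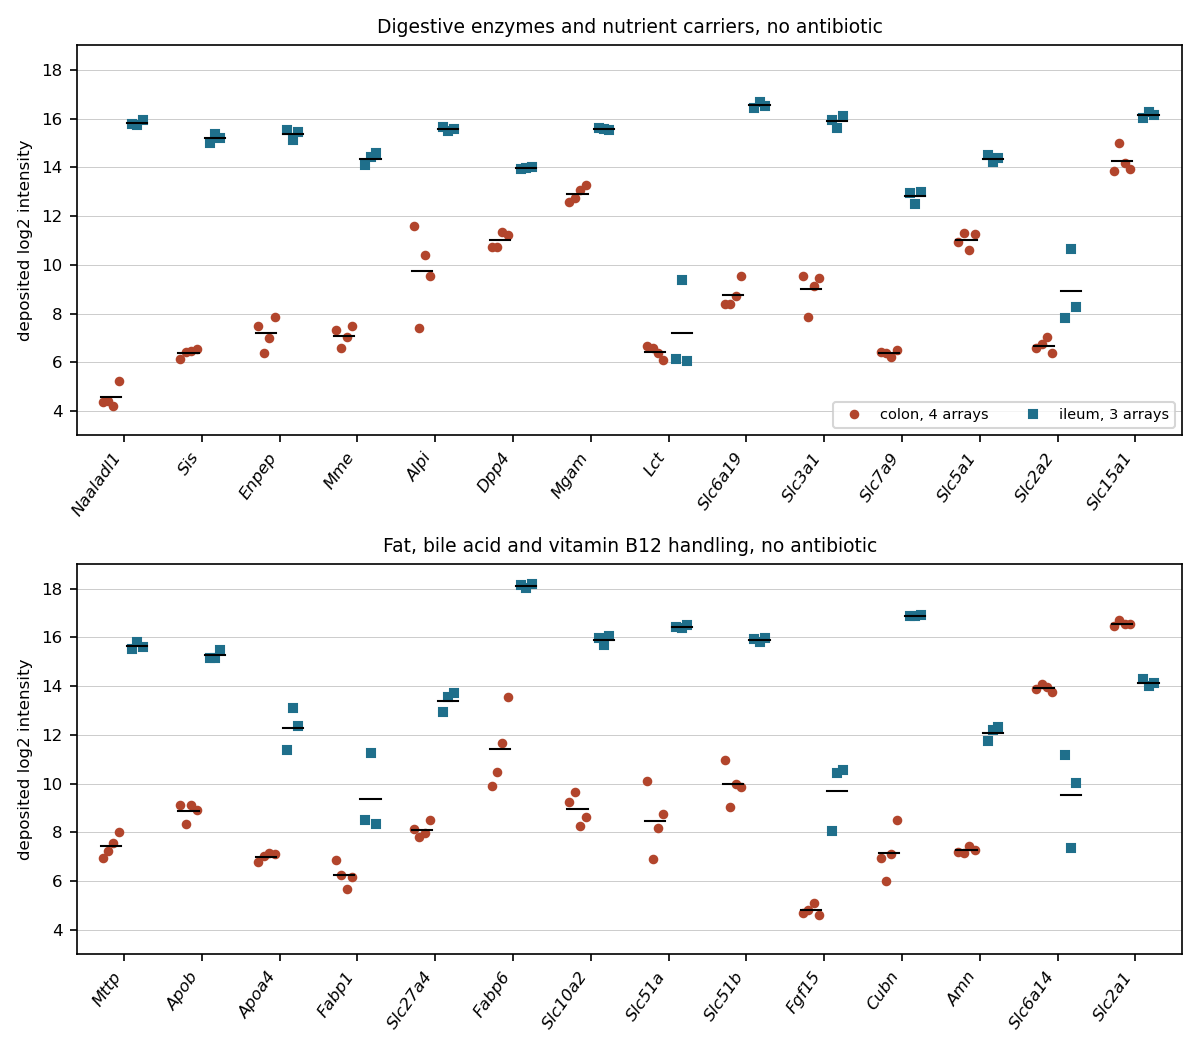
Deposited log2 intensity (vertical axis) of 14 genes of digestion and nutrient carriage (top) and 14 genes of fat, bile acid, vitamin B12 and other carriage (bottom) in the 4 colon arrays (circles) and 3 ileum arrays (squares) without antibiotic, with group means as black bars. The ileum arrays lie above the colon arrays for all genes shown but Lct, Slc6a14 and Slc2a1, and ileum replicate 2 stands apart for Lct at 9.39, Slc2a2 at 10.66 and Fabp1 at 11.26.

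Promoter windows were read for motifs of factors known from gut epithelium, because genes of digestion and uptake moved together. RefSeq windows on GRCm38.p6 from 250 bases before to 50 bases after a start site were matched for 15691 of the 19505 genes. The motifs were CAAAGTCCA for HNF4, a longer motif for HNF1, TTTATGG for CDX, CAATAAA for posterior HOX proteins and AGATAAG for GATA factors, sought on both strands. Matches of different motifs shared letters in 0 of 19143 windows. HNF4 letters stood in 6 of the 109 genes with a window that were higher in ileum by at least 4 (5.5%) and in 0 of 35 genes higher in colon by at least 4, against 0.593% of all 15691 genes. The 6 genes were Slc3a1, Cyp3a11, Treh, Alpi, Btnl2 and Pipox, named after their values were seen. HNF1 letters were in 1.83% of the first group against 0.433% of all genes, in Npc1l1 and Slc10a2. The GATA letters were in 9.17% and 5.71% of the 2 groups against 3.08%, and the HOX letters in 10.1% and 5.71% against 4.17%. Over all called genes, of any size of difference, ileum and colon had GATA letters in 2.89% and 3.08% and HOX letters in 3.43% and 3.37%, at or below the share of all genes, and HNF4 letters in 1.34% and 0.872%. The CDX letters were in 3.67% and 5.71% against 2.73%. Windows of the 2 groups held more A and T, with medians of 46.7% and 48.0% against 43.0% over all genes. A match is a description of letters, not of a bound site.

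The 250 bases before the start site are shown for 5 ileal genes whose windows hold such letters and for Insl5, a hormone gene of the colon, read 5′ to 3′ on the strand of the gene. Capitals mark motif letters on either strand. Slc3a1 (chr17:85028097-85028346, plus strand) holds HNF4 letters and, on the other strand, HOX letters. Alpi (chr1:87101607-87101856, minus strand) holds HNF4 letters close to the start. Npc1l1 (chr11:6230246-6230495, minus strand) and Slc10a2 (chr8:5105288-5105537, minus strand) hold HNF1 letters on the other strand, and Slc10a2 also holds HOX letters at 3 places. Sis (chr3:72967864-72968113, minus strand) holds HOX letters, and the second Insl5 window (chr4:103026729-103026978, minus strand) GATA letters.
Slc3a1: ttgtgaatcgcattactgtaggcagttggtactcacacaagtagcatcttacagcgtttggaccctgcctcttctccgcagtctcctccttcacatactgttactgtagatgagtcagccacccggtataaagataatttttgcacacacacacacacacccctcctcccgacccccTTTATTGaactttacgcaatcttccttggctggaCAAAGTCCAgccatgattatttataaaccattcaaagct
Alpi: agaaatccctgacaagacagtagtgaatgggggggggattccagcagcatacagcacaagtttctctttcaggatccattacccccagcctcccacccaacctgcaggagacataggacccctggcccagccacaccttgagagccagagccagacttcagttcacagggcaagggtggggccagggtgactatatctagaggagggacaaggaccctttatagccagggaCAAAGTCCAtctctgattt
Npc1l1: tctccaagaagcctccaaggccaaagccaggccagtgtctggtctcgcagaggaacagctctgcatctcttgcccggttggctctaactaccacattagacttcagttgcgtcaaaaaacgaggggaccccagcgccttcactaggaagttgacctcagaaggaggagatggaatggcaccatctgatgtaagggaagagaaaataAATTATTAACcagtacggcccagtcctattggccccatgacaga
Slc10a2: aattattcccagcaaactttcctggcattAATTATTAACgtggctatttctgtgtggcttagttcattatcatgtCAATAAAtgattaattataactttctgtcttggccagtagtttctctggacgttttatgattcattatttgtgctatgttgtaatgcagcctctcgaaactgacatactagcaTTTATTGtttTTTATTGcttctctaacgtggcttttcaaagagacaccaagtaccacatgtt
Sis: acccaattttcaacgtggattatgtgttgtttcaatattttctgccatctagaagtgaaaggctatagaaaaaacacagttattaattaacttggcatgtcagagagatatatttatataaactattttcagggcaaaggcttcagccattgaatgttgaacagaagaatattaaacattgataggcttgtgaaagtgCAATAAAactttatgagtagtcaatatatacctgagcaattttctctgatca
Insl5: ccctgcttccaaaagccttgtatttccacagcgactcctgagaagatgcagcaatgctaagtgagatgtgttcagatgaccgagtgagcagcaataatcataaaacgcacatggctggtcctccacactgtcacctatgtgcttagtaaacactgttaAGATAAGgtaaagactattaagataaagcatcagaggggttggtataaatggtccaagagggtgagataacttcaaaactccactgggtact

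Ion and water transport divided between the tissues, with 19 of 45 genes higher in colon, 12 higher in ileum and 14 not called, and a median of 0.50. The colon genes included steps of sodium recovery and of bicarbonate and water movement. Scnn1a, the alpha subunit of the epithelial sodium channel, read 13.09, 13.58, 13.31 and 13 in colon and 8.80, 8.90 and 8.96 in ileum. The beta subunit Scnn1b had 1.18 ± 0.40 (adjusted p = 0.0506) and the gamma subunit Scnn1g 0.88 ± 0.60 (adjusted p = 0.367), so neither was called. Scnn1b passed the threshold in 9 of 15 alternatives (adjusted p from 0.00757 to 0.0472). Some of these left out colon replicate 1, 2, 3 or 5, ileum replicate 1 or vancomycin ileum replicate 11 and duplicated a colon array. Where colon replicate 1 was left out, the duplicate was colon replicate 2. For both, colon replicate 2 was the highest array, with 9.50 for Scnn1b and 8.57 for Scnn1g, and for Scnn1g the other colon arrays lay between 5.63 and 5.98 beside 5.47 to 5.72 in ileum. The channel-activating protease Prss8 differed by 1.73 ± 0.22. Of the aldosterone response, the receptor Nr3c2 differed by 1.04 ± 0.21 and Hsd11b2, the enzyme that shields the receptor from glucocorticoids, by 3.52 ± 0.35.

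The sodium-proton exchanger Slc9a3 read 14.45, 14.09, 14.90 and 15.00 in colon and 11.01, 11.45 and 10.52 in ileum, a difference of 3.62 ± 0.38. The chloride-bicarbonate exchanger Slc26a3 was higher in colon by 1.65 ± 0.20, and its relative Slc26a6 was higher in ileum with 8.13, 8.26, 8.31 and 8.28 in colon and 13.84, 13.68 and 14.01 in ileum. Slc16a1, which carries lactate and butyrate, differed by 1.5 ± 0.12, while the butyrate carrier Slc5a8 was not called with 0.22 ± 0.26 (adjusted p = 0.651). The proton-potassium pump Atp12a read 7.83, 10.97, 10.65 and 9.02 in colon and 5.90, 6.09 and 5.92 in ileum; it varied widely among colon arrays and differed by 3.65 ± 0.77 (adjusted p = 0.00350). The chloride channel Ano1 differed by 4.29 ± 0.40, but it also marks the pacemaker cells of the muscle.

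Carbonic anhydrases and water channels were called in both directions. Car2 read 14.45, 14.27, 14.24 and 14.43 in colon and 7.44, 7.95 and 7.65 in ileum and Car4 differed by 2.36 ± 0.27, both higher in colon like Car1, whereas Car3, Car12 and Car13 were higher in ileum at -3.67 ± 0.56, -1.22 ± 0.34 and -1.45 ± 0.26. The Car12 difference was -0.85 (adjusted p = 0.121) with ileum replicate 3 left out and colon replicate 1 duplicated. Aqp4, the basolateral water channel, read 14.56, 14.14, 14.72 and 14.76 in colon and 7.36, 7.95 and 7.75 in ileum. Aqp11 at -2.41 ± 0.29, Aqp1 at -1.83 ± 0.35 and Aqp3 at -1.30 ± 0.33 were higher in ileum. The peptides that activate guanylate cyclase C in the epithelium were divided, with guanylin Guca2a higher in colon by 0.50 ± 0.12 and uroguanylin Guca2b higher in ileum at -1.82 ± 0.15, while the receptor Gucy2c had 0.01 ± 0.20 (adjusted p = 0.980). Clca4b and Clca4a, whose sequences are near-identical copies, so that probes may not part them, were higher in ileum at -5.66 ± 0.60 and -1.93 ± 0.56. The Clca4a difference was -1.84 (adjusted p = 0.0595) with ileum replicate 3 left out and colon replicate 1 duplicated.

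Of 20 measured claudins and junction proteins 7 were called, and 4 with ileum replicate 3 left out and colon replicate 1 duplicated. Cldn8, a barrier-forming claudin, read 14.02, 14.25, 14.11 and 13.90 in colon and 11.04, 10.38 and 10.61 in ileum, higher in colon by 3.39 ± 0.30. Cldn2, which forms a channel for cations and water, was higher in ileum at -1.95 ± 0.26 and Cldn4 by -2.98 ± 0.32.

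**Figure D2:**
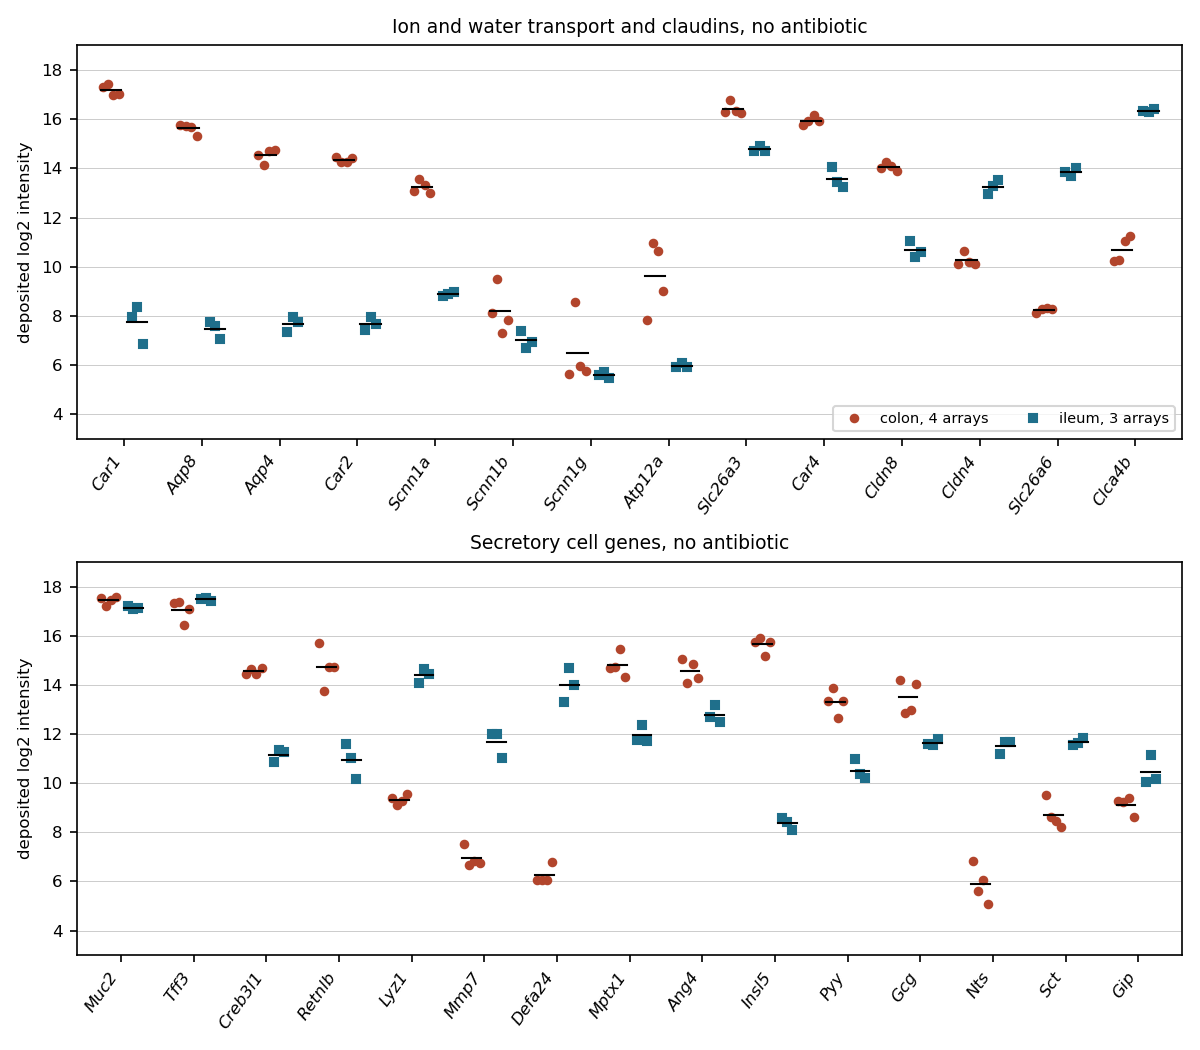
Deposited log2 intensity (vertical axis) of 14 genes of ion and water transport and junctions (top) and 15 genes of goblet, Paneth and enteroendocrine cells (bottom) in the 4 colon arrays (circles) and 3 ileum arrays (squares) without antibiotic, with group means as black bars. Scnn1a is separated between the tissues while for Scnn1g 1 colon array, at 8.57, stands above the rest, and Muc2 and Tff3 are close in both tissues while Lyz1 and Insl5 are far apart.

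Goblet cells secrete the mucus of both organs, and 15 of 27 measured goblet genes were higher in colon, 0 in ileum and 12 were not called. The abundant mucus products were close in both tissues: Muc2 had a difference of 0.31 ± 0.17 (adjusted p = 0.248), Clca1 0.31 ± 0.20 (adjusted p = 0.337), Tff3 -0.43 ± 0.27 (adjusted p = 0.325) and Zg16 -0.28 ± 0.27 (adjusted p = 0.563). These 4 genes read above 16 on each of the 7 arrays. Among the called genes Creb3l1, a transcription factor of secretory cells, read 14.45, 14.65, 14.44 and 14.70 in colon and 10.86, 11.34 and 11.25 in ileum. Retnlb, an antibacterial product induced by bacteria, read 15.70, 13.74, 14.74 and 14.72 in colon and 11.60, 11.02 and 10.15 in ileum, a difference of 3.80 ± 0.61. The regulators Atoh1 and Foxa3 differed by 1.30 ± 0.25 and 1.30 ± 0.24, the stress sensor of mucus-producing cells Ern2 by 1.75 ± 0.19 and the folding enzyme Agr2 by 0.86 ± 0.18. Among 7 measured mucins and mucin-related genes of the cell surface, Muc1 at 3.84 ± 0.84 and Muc4 at 2.52 ± 0.31 were higher in colon, and Muc13 had -0.14 ± 0.17 (adjusted p = 0.664). Muc1 ranged from 9.16 in colon replicate 2 to 12.11 in colon replicate 5 beside 6.94 to 7.09 in ileum.

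Paneth cells, which sit at the base of small intestinal crypts and release antibacterial peptides, are absent from healthy mouse colon. Of 27 measured genes of the list 18 were higher in ileum and 4 higher in colon. The lysozyme Lyz1 read 9.39, 9.13, 9.27 and 9.55 in colon and 14.07, 14.64 and 14.46 in ileum and the protease that activates defensins, Mmp7, read 7.51, 6.68, 6.82 and 6.75 in colon and 12.02, 12.01 and 11.03 in ileum. Defa24 differed by -7.75 ± 0.42 and Defa30 by -7.62 ± 0.29. Alpha-defensins are near-identical copies, so single members cannot be trusted apart, and the probe sets of Defa3 and Defa17 held the same values on every array; counted as 1 measurement, they leave 17 of 26 higher in ileum. Defa34, Defa24 and Defa3 were highest in ileum replicate 2, and Defa24 spanned 13.32 to 14.69 in ileum. The 4 genes higher in colon were Mptx1 at 2.85 ± 0.46, Mptx2 at 1.31 ± 0.42, Ang4 at 1.77 ± 0.47 and Nupr1 at 2.93 ± 0.37. With colon replicate 1 duplicated, the Mptx2 difference was 1.22 (adjusted p = 0.0868) without ileum replicate 1 and 1.18 (adjusted p = 0.101) without ileum replicate 3. Ang4, an antibacterial ribonuclease, and the pentraxins Mptx1 and Mptx2 are known products of goblet or Paneth cells in mice, and Nupr1 is a stress-responsive regulator of many cell types. Itln1, a lectin of the list, had -0.53 ± 0.49 (adjusted p = 0.535).

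Enteroendocrine cells release gut hormones, and their genes were called in both directions. Of 32 measured genes 12 were higher in colon, 3 in ileum and 17 were not called. Insl5, a hormone of colonic L cells, read 15.75, 15.92, 15.17 and 15.74 in colon and 8.57, 8.42 and 8.09 in ileum. Pyy, which slows transit, differed by 2.79 ± 0.27 (adjusted p = 4.38e-06), and Gcg, which encodes the glucagon-like peptides, by 1.86 ± 0.52 (adjusted p = 0.0195). The general granule genes Chga and Chgb differed by 1.55 ± 0.22 and 1.93 ± 0.19. Tph1, which makes serotonin in enterochromaffin cells, read 10.29, 10.27, 9.81 and 10.70 in colon and 7.50, 6.96 and 7.43 in ileum, a difference of 2.97 ± 0.22. The fatty acid receptor Ffar4 differed by 2.28 ± 0.40 and the tachykinin gene Tac1, also expressed by enteric neurons, by 1.53 ± 0.38. The 3 hormones higher in ileum were Nts, neurotensin, with 6.85, 5.62, 6.08 and 5.09 in colon and 11.20, 11.68 and 11.69 in ileum, secretin Sct at -2.98 ± 0.27 and Gip at -1.32 ± 0.31. Cck had 0.04 ± 0.20 (adjusted p = 0.934), Sst 0.36 ± 0.40 (adjusted p = 0.624) and Ghrl -0.10 ± 0.22 (adjusted p = 0.830), none of them called.

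Tuft cells, the chemosensory cells of the epithelium, showed 6 of 22 genes higher in colon and 1 in ileum. The kinase Dclk1 read 8.86, 8.06, 9.01 and 9.71 in colon and 6.63, 6.58 and 6.54 in ileum, and Gnat3, a taste transducin, differed by 2.28 ± 0.33. The defining factor Pou2f3 had 0.64 ± 0.31 (adjusted p = 0.173) and the cytokine Il25 0.16 ± 0.19 (adjusted p = 0.659). Stem cell and Wnt target genes were mixed, with 5 of 17 higher in colon and 2 in ileum. Lgr5 and Ascl2, which mark crypt base stem cells, had -0.30 ± 0.16 (adjusted p = 0.225) and 0.10 ± 0.14 (adjusted p = 0.709). The crypt regulator Sox9 was higher in colon by 2.18 ± 0.33, the receptor Ephb3 by 1.54 ± 0.23 and Axin2, a Wnt target, was higher in ileum at -1.5 ± 0.25. Of 18 genes of cell division 1 was called, and 0 with ileum replicate 2 or 3 left out and colon replicate 1 duplicated. Mki67 and Pcna had 0.24 ± 0.25 (adjusted p = 0.609) and 0.05 ± 0.16 (adjusted p = 0.891).

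**Figure D3:**
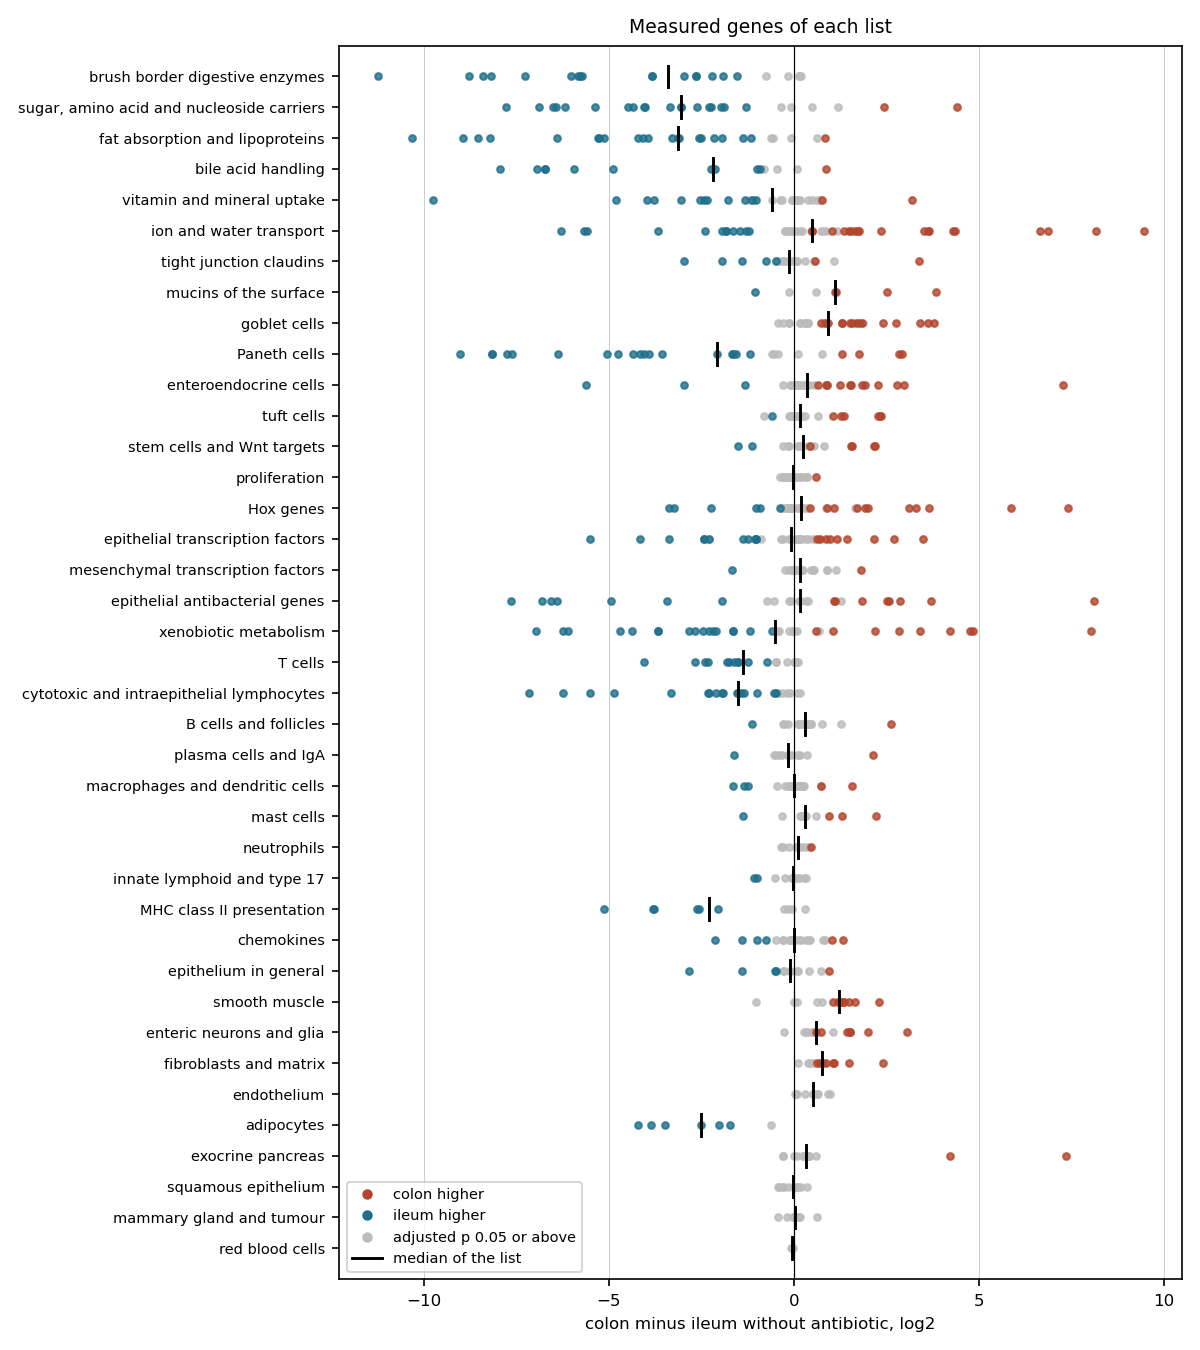
Colon minus ileum difference without antibiotic (horizontal axis, log2) of every measured gene in each of 39 gene lists (rows), with calls in colour, uncalled genes in grey and the median of each list as a black bar. Digestive enzymes and fat absorption lie to the left, with medians of -3.40 and -3.13, smooth muscle lies to the right with a median of 1.21, and proliferation lies around 0 with a median of -0.02.

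Hox genes, which set position along the body axis and lie in 4 clusters in the order of their use, were called colon higher in 11 of 33 measured cases and ileum higher in 6, and 6 of the 39 listed Hox genes are not analysed here. In the Hoxa cluster 7 of 8 measured genes were higher in colon and 0 in ileum, with Hoxa10 at 12.97, 12.35, 12.65 and 13.05 in colon and 6.90, 6.98 and 6.80 in ileum. Hoxa5 and Hoxa6 differed by 3.66 ± 0.27 and 3.30 ± 0.24, Hoxa2 and Hoxa3 by 1.70 ± 0.24 and 1.92 ± 0.23, and Hoxa11 and Hoxa13 by 1.08 ± 0.21 and 0.90 ± 0.18. The antisense transcript Hoxa11os, outside the list and named after its value was seen, read 12.35, 12.01, 12.12 and 12.43 in colon and 5.51, 5.72 and 5.26 in ileum, a difference of 6.73 ± 0.17. In the Hoxb cluster Hoxb13 was higher in colon by 7.40 ± 0.38, and Hoxb6 at -3.25 ± 0.39, Hoxb5 at -1.03 ± 0.22, Hoxb3 at -0.93 ± 0.23 and Hoxb8 at -0.38 ± 0.12 were higher in ileum. With ileum replicate 3 left out and colon replicate 1 duplicated, the Hoxb3 difference was -0.60 (adjusted p = 0.0625) and that of Hoxb8 -0.33 (adjusted p = 0.0789).

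The Hoxc genes called were both higher in ileum. Hoxc8 read 5.36, 4.82, 5.5 and 5.08 in colon and 8.94, 8.66 and 8.12 in ileum and Hoxc6 5.55, 5.81, 5.70 and 5.20 in colon and 7.78, 7.73 and 7.87 in ileum, and for both no colon array reached the lowest ileum array. Hoxc10 had -0.07 ± 0.14 (adjusted p = 0.806). In the Hoxd cluster colon replicate 2 stood apart from the other colon arrays. Hoxd10 read 6.42, 9.75, 7.02 and 7.18 in colon and 4.56, 4.43 and 4.48 in ileum, Hoxd11 6.91, 9.63, 7.03 and 7.02 in colon and 5.93, 5.45 and 5.54 in ileum and Hoxd13 5.23, 8.46, 5.80 and 5.66 in colon and 4.57, 4.75 and 4.57 in ileum. Hoxd10 and Hoxd11 were called with 3.10 ± 0.68 (adjusted p = 0.00460) and 2.01 ± 0.61 (adjusted p = 0.0309), and Hoxd13 was not, with 1.66 ± 0.65 (adjusted p = 0.0942). With colon replicate 1 duplicated, the Hoxd11 difference was 1.33 (adjusted p = 0.0244) without colon replicate 2 and 2 (adjusted p = 0.0592) without ileum replicate 1. With the same duplicate it was 1.76 (adjusted p = 0.0959) without ileum replicate 2 and 1.81 (adjusted p = 0.0952) without ileum replicate 3. Hoxd13 passed the threshold in 2 of 15 alternatives (adjusted p from 0.0194 to 0.0339). In 1 of these colon replicate 1 was left out and colon replicate 2, the array apart, was duplicated.

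**Figure D4:**
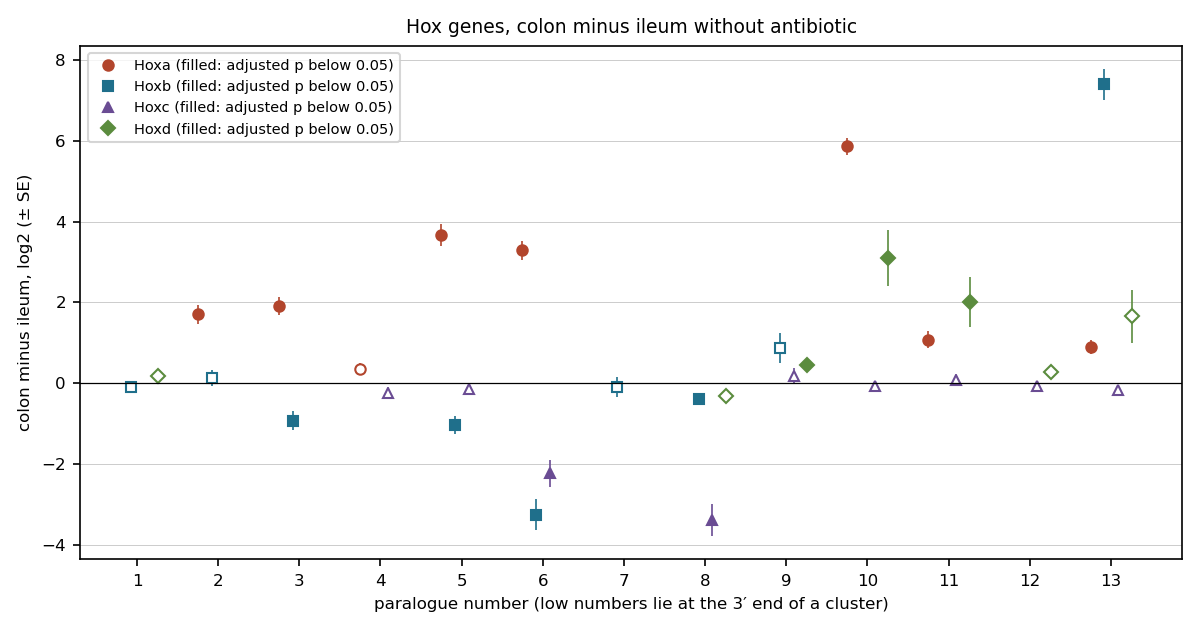
Colon minus ileum difference without antibiotic (vertical axis, log2, bars are the standard error of the limma fit) of 33 Hox genes against paralogue number (horizontal axis), by cluster, with filled symbols for genes past the threshold. Hoxa genes lie above 0, up to 5.86 for Hoxa10, the called Hoxc genes lie below 0, down to -3.38 for Hoxc8, and Hoxb runs from -3.25 for Hoxb6 to 7.40 for Hoxb13.

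Transcription factors of the epithelium were called in both directions, with 9 of 35 higher in colon and 11 in ileum. Gata5 read 6.02, 5.75, 5.67 and 5.81 in colon and 10.45, 11.73 and 11.78 in ileum, a difference of -5.51 ± 0.39. Gata4, a factor of the upper small intestine, was called with -1.02 ± 0.29 (adjusted p = 0.0231) on values of 7.35, 7.58, 7.61 and 7.14 in colon and 7.82, 9.42 and 8.07 in ileum. The Gata4 difference was -0.54 (adjusted p = 0.0385) with ileum replicate 2 left out and colon replicate 1 duplicated. Hnf4g and Hnf4a, the HNF4 receptors, were higher in ileum at -2.30 ± 0.17 and -1.04 ± 0.19. A link between them and the promoter letters above was not tested. Maf, a leucine zipper factor, differed by -4.16 ± 0.26 and Tbx3 by -3.36 ± 0.32. The lipid and drug sensors Nr1h3, Ppara and Nr1i2 were higher in ileum at -2.43 ± 0.27, -1.25 ± 0.25 and -1.38 ± 0.22, whereas Pparg was higher in colon by 2.17 ± 0.18.

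Foxa2, a pioneer factor of gut endoderm, read 10.32, 11.05, 9.85 and 10.38 in colon and 6.59, 7.07 and 7.07 in ileum, and Foxa1 differed by 1.45 ± 0.21. Tfcp2l1, a factor of salt-transporting ducts, differed by 2.71 ± 0.20 and Ehf by 1.17 ± 0.17. Cdx1 was higher in colon by 0.87 ± 0.14, while Cdx2, the factor that sets intestinal identity, had -0.89 ± 0.54 (adjusted p = 0.306) and was not called. Its values were 12.10, 10.22, 12.31 and 12 in colon and 12.45, 12.37 and 12.83 in ileum, with colon replicate 2 below the other 6 arrays. Isx, an intestinal homeobox repressor of vitamin A uptake, read 12.21, 9.04, 11.53 and 11.63 in colon and 13.36, 13.31 and 13.50 in ileum, again with colon replicate 2 the lowest array. Its difference of -2.29 ± 0.80 (adjusted p = 0.0603) was not called. Isx passed the threshold in 3 of 15 alternatives (adjusted p from 0.0140 to 0.0182). In 1 of these colon replicate 1 was left out and colon replicate 2, the lowest array, was duplicated. Of 22 transcription factors of the mesenchyme 2 were called, Tcf21 higher in colon by 1.82 ± 0.40 and Prrx1 higher in ileum at -1.66 ± 0.29. With only the 7 arrays without antibiotic in the fit 5 of the 22 were called, and 5 with vancomycin ileum replicate 11 left out and colon replicate 1 duplicated.

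Genes of muscle, nerve and matrix were called colon higher and not ileum higher. Smooth muscle genes were higher in colon in 9 of 14 cases and in ileum in 0, with list means between 12.01 and 13.06 in colon and between 11.63 and 11.87 in ileum. Synpo2, which binds actin in muscle, read 13.65, 11.52, 13.60 and 13.28 in colon and 10.63, 10.63 and 10.87 in ileum, and Cnn1 differed by 1.65 ± 0.30. Colon replicate 2 was the lowest colon array for both. Enteric neuron and glia genes were higher in colon in 7 of 15 cases, with Penk, an opioid peptide gene, at 3.06 ± 0.47 and Uchl1 at 2.02 ± 0.51. Fibroblast and matrix genes were higher in colon in 8 of 13 cases, with Postn at 2.40 ± 0.33 and Col3a1 at 1.48 ± 0.23. With ileum replicate 3 left out and colon replicate 1 duplicated, 5 of the 13 were called. Of 10 endothelial genes 0 were called by limma (2 at an unadjusted p under 0.05), and 2 with only the arrays without antibiotic in the fit. With vancomycin ileum replicate 11 left out and colon replicate 1 duplicated, 1 was called. Of 13 genes of the epithelium in general 1 was higher in colon and 4 in ileum; Epcam had -0.26 ± 0.16 (adjusted p = 0.303) and Krt8 -0.29 ± 0.12 (adjusted p = 0.121), neither called, while Vil1, which bundles actin in microvilli, was higher in ileum at -2.82 ± 0.23. Krt8 passed the threshold in 4 of 15 alternatives (adjusted p from 0.0329 to 0.0470). Some of these left out colon replicate 3 or vancomycin ileum replicate 11 and duplicated colon replicate 1. The part of muscle, nerve and matrix in the regional differences was not tested.

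Lymphocyte genes gave a large block of ileal calls. Of 23 measured genes of cytotoxic and intraepithelial lymphocytes 17 were higher in ileum and 0 in colon, with a median of -1.51, and of 18 T cell genes 11 were higher in ileum and 0 in colon, with a median of -1.37. The granzyme Gzma, a serine protease of cytotoxic granules, read 6.49, 6.25, 5.43 and 6.63 in colon and 13.43, 13.43 and 13.22 in ileum. Gzmb read 5.96, 6.49, 5.99 and 6.27 in colon and 12.79, 12.47 and 11.98 in ileum, and neither granzyme overlapped between the tissues. Cd7, a surface protein of T and NK cells, differed by -4.87 ± 0.24 and the granule protein Nkg7 by -3.33 ± 0.18. Itgae, the integrin chain that tethers lymphocytes to epithelial cadherin, differed by -1.94 ± 0.18, and Ccr9, the receptor that brings lymphocytes to the small intestine, by -2.30 ± 0.27. Tmigd1, which is on the list but is known as an adhesion protein of the epithelial brush border, differed by -5.52 ± 0.60.

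Among T cell genes Cd3g read 8.5, 8.67, 7.48 and 8.21 in colon and 12.20, 12.35 and 12.21 in ileum and Cd8a 7.82, 7.70, 7.26 and 7.41 in colon and 10.22, 9.05 and 10.35 in ileum. Cd3e and Cd3d differed by -2.66 ± 0.23 and -2.39 ± 0.41, and Cd8b1 by -1.74 ± 0.42 with ileum values from 7.38 to 9.48. Cd4 had -0.49 ± 0.18 (adjusted p = 0.0704) and Thy1 0.06 ± 0.23 (adjusted p = 0.902), neither called. Cd4 passed the threshold in 8 of 15 alternatives (adjusted p from 0.0175 to 0.0484). Some of these left out colon replicate 2, 3 or 5, ileum replicate 3 or vancomycin ileum replicate 11 and duplicated colon replicate 1. The chemokine Ccl25, the ligand of Ccr9, had -0.13 ± 0.18 (adjusted p = 0.696). Of 19 B cell genes 1 was higher in colon (Blnk, an adaptor of the B cell receptor, by 2.62 ± 0.29) and 1 higher in ileum (Ciita, at -1.13 ± 0.19). Cd79a had 0.15 ± 0.64 (adjusted p = 0.917) and Ms4a1 0.23 ± 0.38 (adjusted p = 0.764), with colon replicate 2 the highest array for both at 10.16 and 7.26. Plasma cell genes gave 2 calls in 13, and Jchain, the chain that joins IgA, had -0.39 ± 0.43 (adjusted p = 0.614). Of 23 macrophage and dendritic cell genes 5 were called (21.7%), near the 20.5% called over all genes. The called share was 10.5% in the B cell list and 15.4% in the plasma cell list. Among the 5 were Lyz2 and Itgam, higher in ileum at -1.64 ± 0.32 and -1.35 ± 0.17, and Cd14, higher in colon by 1.58 ± 0.25. Adgre1 and Csf1r had 0.21 ± 0.14 (adjusted p = 0.376) and -0.05 ± 0.22 (adjusted p = 0.917).

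Antigen presentation was higher in ileum for 6 of 10 class II genes. H2-Ab1 read 9.06, 9.52, 8.93 and 9.30 in colon and 13.11, 13 and 12.82 in ileum and H2-DMa, which loads peptide onto class II, read 7.56, 7.50, 7.09 and 7.78 in colon and 12.80, 12.26 and 12.78 in ileum. H2-Eb1 and H2-Aa differed by -3.80 ± 0.29 and -2.63 ± 0.23, while H2-Oa and H2-Ob had -0.06 ± 0.42 (adjusted p = 0.950) and -0.16 ± 0.49 (adjusted p = 0.879). The class I genes that lie beside H2-DMa in RefSeq gene order, named after their values were seen, were called in the same direction. The immunoproteasome subunits Psmb9 and Psmb8 differed by -3.35 ± 0.21 and -2.93 ± 0.24 and the peptide transporter Tap1 by -2.88 ± 0.20. Together H2-DMa, H2-DMb2, H2-DMb1, Psmb9, Tap1, Psmb8 and Tap2 formed a run of 7 neighbouring measured genes, all called ileum higher. Btnl genes, whose products support intraepithelial lymphocytes from the side of the enterocyte, stood in a run of 6 called neighbours that holds Btnl2, Btnl1, Btnl4, Btnl6, the pseudogene Btnl5-ps and BC051142, with Btnl2 at -5.33 ± 0.43, Btnl1 at -2.73 ± 0.39 and Btnl4 at -2.17 ± 0.21.

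Antibacterial genes of the epithelium were called in both directions, with 8 of 25 higher in colon and 7 in ileum. The lectins Reg3b, Reg3g and Reg3a, whose close sequence leaves their separation uncertain, were higher in ileum, and Reg3g read 8.70, 7.27, 7.72 and 9.64 in colon and 15.44, 14.59 and 14.62 in ileum. Ido1, which degrades tryptophan, read 7.30, 6.06, 6.53 and 7.29 in colon and 13.87, 13.16 and 13.77 in ileum and Nos2, the inducible nitric oxide synthase, 7.14, 6.97, 8.16 and 8.18 in colon and 12.52, 12.76 and 12.35 in ileum. In colon the NADPH oxidase Nox1 was higher by 2.88 ± 0.31, and the gasdermins Gsdmc2 and Gsdmc4, near-identical copies, by 2.56 ± 0.16 and 2.52 ± 0.17. Lypd8, which keeps flagellated bacteria from the surface, differed by 1.10 ± 0.17. Saa1, an acute phase protein, read 13.56, 13.83, 13.74 and 13.60 in colon and 11.84, 8.87 and 9.21 in ileum, and ileum replicate 1 was the highest ileum array. Pigr, which exports IgA, had 0.13 ± 0.16 (adjusted p = 0.667).

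Genes of drug and steroid metabolism were called in both directions, with 9 of 34 genes higher in colon and 17 in ileum. In ileum Cyp3a25 and Cyp3a11 were higher at -6.22 ± 0.31 and -6.11 ± 0.63 and Sult2b1 at -4.38 ± 0.34. Cyp4f14 was higher at -6.96 ± 0.74 while its colon arrays spread over 10.45, 6.48, 8.73 and 9.50. Sult1a1 read 12.43, 11.76, 12.41 and 12.09 in colon and 7.46, 7.50 and 7.27 in ileum, and among colon genes Sult1c2 differed by 4.23 ± 0.32, Adh1 by 3.41 ± 0.30 and Cyp2c55 by 4.83 ± 0.65. Adjacent family members went together, although probes of such copies may not part them: 6 neighbouring Cyp3a genes were all called ileum higher with a median of -4.46, a run of 8 genes that holds 6 Cyp2d genes and a Cyp2d pseudogene beside Ndufa6 was called colon higher with a median of 3.45, and 7 neighbouring Gstm genes were called colon higher with a median of 1.80. In that Cyp2d run Cyp2d12 read 12.50, 14.33, 13.64 and 12.73 in colon and 7.28, 7.10 and 6.77 in ileum. Over all 19483 neighbouring pairs of measured genes 786 were called in the same direction and 306 in opposite directions.

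Single arrays stood apart in sets of genes, which were found by a rule chosen after the values were seen: a gap of at least 1.5 to the nearest array of the group with the others within 0.75. Ileum replicate 2 was higher in 13 genes and lower in 3. Besides Lct, Slc2a2 and Fabp1 it was high for the ceramidase Asah2, with 11.86, 14.28 and 12.18 in the ileum arrays. The regional difference of Asah2 was -2.06, and -1.25 with ileum replicate 2 left out and colon replicate 1 duplicated. Ileum replicate 2 was also high for the sugar carrier Slc5a4b, with 9.60, 12.75 and 10.22, and for Ugt2a3, with 10.01, 12.54 and 10.55. It was low for Hoxb9, with 10.14, 8.53 and 10.35. Hoxb9 passed the threshold in 1 of 15 alternatives (adjusted p = 0.0283), with ileum replicate 3 left out and colon replicate 1 duplicated. Colon replicate 2 was higher in 6 genes, among them Hoxd11, Hoxd13 and Scnn1g, and lower in 14, among them Cdx2, Isx and Synpo2. The sulphate carrier Slc13a1 read 12.11, 9.62, 11.84 and 12.01 in colon and 16.61, 16.28 and 16.87 in ileum and Plet1, a membrane protein of progenitor cells, 13.84, 10.16, 13.25 and 13.50 in colon and 9.82, 7.85 and 8.05 in ileum. With colon replicate 1 duplicated, 4416 probe sets were called without colon replicate 2 and 3677 without ileum replicate 2.

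Genes of the exocrine pancreas were higher in replicate 1 of both tissues. The amylase Amy2a5 read 13.46, 7.54, 7.07 and 7.47 in colon and 10.99, 7.62 and 7.28 in ileum and chymotrypsinogen Ctrb1 8.61, 4.40, 4.61 and 4.76 in colon and 6.20, 4.75 and 4.62 in ileum. The mean of 15 pancreatic genes was 9.86 in colon replicate 1 and 8.41 to 8.55 in the other colon arrays, and 8.26 in ileum replicate 1 beside 7.61 and 7.69. Amy2a5 and Ctrb1 were not called between the tissues. The pancreatic genes called, both colon higher, were Sycn and the elastase Cela1, which read 11.35, 12.43, 11.19 and 11.63 in colon and 7.37, 7.54 and 7.35 in ileum with no rise in replicate 1 of either tissue. Csn3, a milk protein gene, stood at 10.28 in colon replicate 5 and between 7.31 and 7.67 in the other colon arrays. Of 9 mammary and tumour genes 0 were called by limma (0 at an unadjusted p under 0.05), and Erbb2, the mouse counterpart of HER2, had 0.18 ± 0.15 (adjusted p = 0.482). Of 11 squamous genes 0 were called (1 at an unadjusted p under 0.05), and 1 was called with colon replicate 2 or 3 left out and colon replicate 1 duplicated.

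The regional differences were set beside those of the mice given vancomycin. Of the 4020 probe sets called without antibiotic 3834 (95.4%) had the same sign with vancomycin, 2185 (54.4%) were also called in the same direction there, where 15.1% of all probe sets were called, and 4 were called in the opposite direction. Of the 681 probe sets called with a difference of at least 2, 620 were called the same way with vancomycin. The 2 comparisons share no arrays but share the estimate of spread. A test of the difference between the 2 regional differences called 37 probe sets (0.189%), of which 36 were also regional calls without antibiotic. That number depended on single arrays: it was 12 without vancomycin colon replicate 13, 12 without ileum replicate 3 of the mice without antibiotic and 84 without vancomycin ileum replicate 11, the array that stood apart. Deviations of same-numbered colon and ileum arrays with vancomycin were correlated at 0.24, 0.18 and 0.11, while those of colon replicate 13 and ileum replicate 14 had 0.149. With the replicate number as a block 23 probe sets were called.

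The 11 genes described here are those with a called change among the 270 genes named in this text. Many of the 270 were picked for large differences without antibiotic, which favours a smaller difference with vancomycin. In 9 of the 11 the ileum was higher without antibiotic and the difference was smaller or turned with vancomycin. That share does not carry over to all called changes. Outside the 270, Ceacam10 changed by 4.19 (adjusted p = 6.81e-05) and U90926 by 4.59 (adjusted p = 0.0108). Fgf15 differed by -4.88 ± 0.45 without antibiotic and -0.72 ± 0.49 with vancomycin, a change of 4.17 ± 0.66, adjusted p = 0.0241. Gzmb went from -6.24 ± 0.40 to -2.32 ± 0.42 (3.91 ± 0.58, adjusted p = 0.0154), Cd7 from -4.87 ± 0.24 to -1.91 ± 0.26 (2.96 ± 0.36, adjusted p = 0.00687) and Nkg7 from -3.33 ± 0.18 to -1.37 ± 0.19 (1.96 ± 0.26, adjusted p = 0.0101). Itgae went from -1.94 ± 0.18 to -0.18 ± 0.20 (1.76 ± 0.27, adjusted p = 0.0181). For H2-Eb1 the change was 2.82 ± 0.43, adjusted p = 0.0165, for Nos2 3.67 ± 0.51, adjusted p = 0.0108, for Ubd, a ubiquitin-like protein, 4.11 ± 0.45, adjusted p = 0.00304 and for Tap1 2.26 ± 0.30, adjusted p = 0.0101. In the colon direction, Tph1 fell from 2.97 ± 0.22 to 0.87 ± 0.24 (-2.10 ± 0.33, adjusted p = 0.0184), while Nox1 went from 2.88 ± 0.31 to 5.57 ± 0.33 (2.69 ± 0.45, adjusted p = 0.0339). Gzma, at -7.16 ± 0.50 and -4.17 ± 0.54, and H2-Ab1, at -3.77 ± 0.23 and -2.04 ± 0.25, did not pass that test, with adjusted p = 0.198 and 0.0726. Without any 1 of the 13 arrays, Cd7, Nkg7, Nos2, Ubd and Tap1 passed the test each time, with adjusted p up to 0.0269, 0.0428, 0.0431, 0.0191 and 0.0428. The others kept their direction and lost the call for some arrays: Gzmb without vancomycin colon replicate 13 or ileum replicate 1, Itgae without vancomycin colon replicate 13 or ileum replicate 3, and H2-Eb1 without vancomycin colon replicate 14 or ileum replicate 1 or 3, with adjusted p up to 0.0588, 0.0835 and 0.0815. Fgf15 lost it in 6 of 13 cases, Tph1 in 5 and Nox1 in 9, with adjusted p up to 0.0994, 0.0721 and 0.121. With that block Gzmb, H2-Eb1 and Tph1 also missed the threshold, with adjusted p = 0.0606, 0.05095 and 0.05095, and the other 8 genes passed. Among transport and digestion genes, Slc10a2 had -6.95 ± 0.31 without antibiotic and -7.81 ± 0.33 with vancomycin, Enpep -8.19 ± 0.28 and -8.49 ± 0.30 and Aqp4 6.86 ± 0.21 and 7.25 ± 0.23. None of these 3 passed the test of a change, with adjusted p = 0.681, 0.904 and 0.809.

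**Figure D5:**
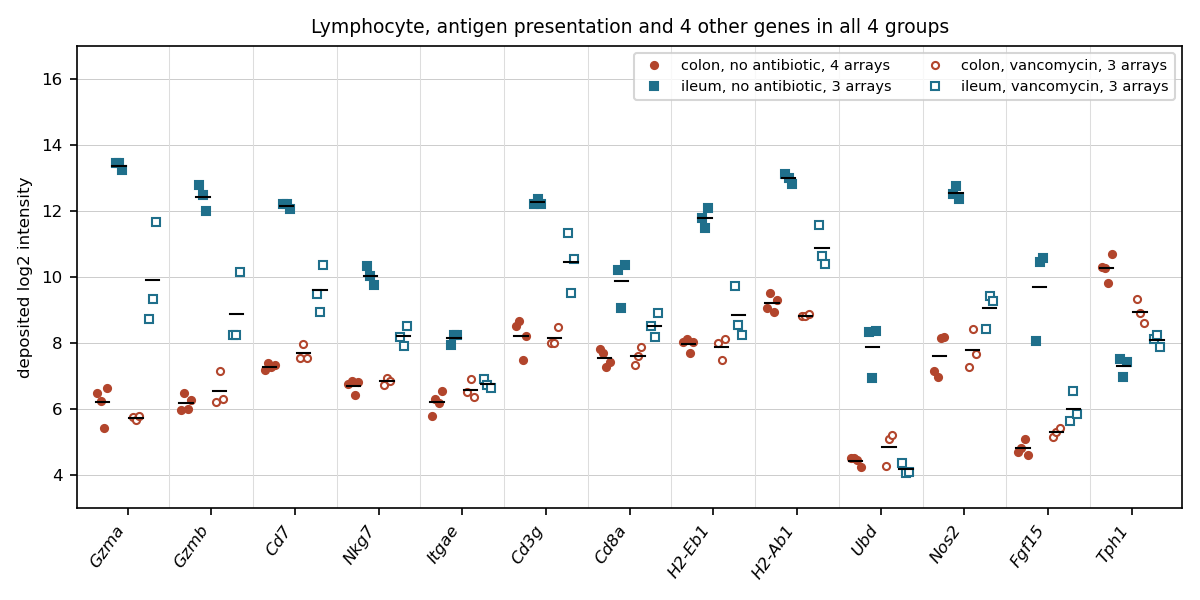
Deposited log2 intensity (vertical axis) of 13 genes in the 4 groups, colon as circles and ileum as squares, filled without antibiotic and open with vancomycin, with group means as black bars. Ileum arrays without antibiotic are the highest for all genes shown but Tph1, and the open squares lie nearer to the colon arrays, as for Itgae at 6.64 to 6.92 beside 6.35 to 6.91 in colon with vancomycin.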

How the data were processed

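Total RNA of washed, frozen colon and ileum was labelled with biotin and read on 1-colour Affymetrix arrays, per the labels' protocols. The deposited table holds log2 values, and RMA and Affymetrix Expression Console 1.4.1.46 are named in the submitters' processing notes, without roles; with an annotation build not given in the sources used here. All 28846 probe sets were read and the 19572 with 1 symbol in the platform annotation were kept, unscaled. Groups came from the labels. A group-means model of all 13 arrays was fitted with limma 3.58.1 (R 4.3.3), and p-values were adjusted by Benjamini-Hochberg. In a simulation with independent noise, 67, 67 and 66 of 19572 probe sets were changed by 1, 2 and 3 on the log2 scale. The fit recovered 71.6%, 98.5% and 100% of these, with 3.74% false calls. Far fewer probe sets changed there than the 20.5% called here, so the rates do not describe the real comparison. Where a gene had several probe sets, 1 was used.

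The members and the 39 gene lists were chosen with earlier results of these data known. A rule picked the 12 largest differences per direction without overlap, each list's defining genes and up to 5 members per list and direction. Not all genes that it picked are described. The text also describes genes that it did not pick, and only some of these are marked as chosen later. Alternatives were the arrays without antibiotic alone, array weights, an intensity trend, quantile normalization, median centring, no dim probe sets, a replicate block and each array without antibiotic left out. Leaving out vancomycin ileum replicate 11 was added after the data were seen. In these refits with 1 array left out, the set was filled up to 13 arrays by a duplicate. It was colon replicate 1, or colon replicate 2 where colon replicate 1 was left out. The differences with vancomycin and the test of a change between treatments held no duplicate when an array was left out. Deviations of same-numbered colon and ileum arrays were correlated at 0.05, 0.00 and 0.04 without antibiotic and at 0.24, 0.18 and 0.11 with vancomycin. A criterion of over 0.1 in every pair was thus met only with vancomycin, and blocked values are given beside the change between treatments. The criterion does not settle that the numbers pair the arrays, since vancomycin colon replicate 13 and ileum replicate 14 had 0.149. Gene order and promoters came from RefSeq tables on GRCm38.p6.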

Additional observations from a re-analysis of the deposited data

Results flagged for a closer look

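Within the 4 colon arrays, chance sets 1 array apart by Dixon's criterion in about 1 in 20 groups. Among 270 genes and 39 list means checked, 21 had an array apart, a share near that of chance. Colon replicate 2 lay far from the other colon arrays for Abcg8 (6.61), Hoxd11 (9.63), Scnn1g (8.57) and Slc26a3 (16.80), which were high, and for Cdx2 (10.22), Cnn1 (15.56), Plet1 (10.16) and Slc13a1 (9.62), which were low. Its mean was also high over the Hox genes (7.32) and low over bile acid handling (8.04) and enteric neurons and glia (8.14). Colon replicate 1 was high for the pancreatic genes Amy2a5 (13.46) and Ctrb1 (8.61), for the mean of the pancreatic list (9.86) and for Mmp7 (7.51). Colon replicate 3 was high for Slc34a2 (11.83) and low in the mean of fat absorption (8.61) and of chemokines (8.27). Colon replicate 5 was high for Csf1r (8.73), Csn3 (10.28) and Defa24 (6.81).

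Among the 270 genes checked, the colon minus ileum difference changed between the mice without antibiotic and those given vancomycin (limma, adjusted p under 0.05) for 11. These were Fgf15 by 4.17, Ubd by 4.11, Gzmb by 3.91, Nos2 by 3.67, Cd7 by 2.96 and H2-Eb1 by 2.82. The others were Nox1 by 2.69, Tap1 by 2.26, Nkg7 by 1.96, Itgae by 1.76 and Tph1 by -2.10.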

How the results depend on the processing

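Of 270 genes named, 222 were past the threshold, 216 of these under each of the 15 alternatives, and no called gene turned its sign. Of the 48 others, 10 passed it under at least 1 alternative. Those of the 15 alternatives that left out 1 array, among them vancomycin ileum replicate 11, also held a duplicated colon array. They do not show the effect of the omission alone. Against 4020 calls, 4697 probe sets were called with the arrays without antibiotic alone, 5421 with array weights, 3850 with median centring and 3882 without dim probe sets. With 1 array without antibiotic left out and a colon array duplicated, 3398 to 4880 were called. A minimum difference of 1 left 2031. Numbers of called genes moved in small lists. Mesenchymal factors (2) gave 5 with the arrays without antibiotic alone, 1 without dim probe sets and 5 without vancomycin ileum replicate 11. Neutrophils (1) gave 2 with array weights, 0 with median centring, 0 with the replicate block and 2 without vancomycin ileum replicate 11. Chemokines (6) gave 11 with array weights, squamous genes (0) gave 1 with them, and endothelium (0) gave 2 with the arrays without antibiotic alone, 1 with array weights, 2 with the replicate block and 1 without vancomycin ileum replicate 11. With 1 array left out and a colon array duplicated, claudins (7) ranged from 4 to 10, proliferation (1) from 0 to 1, neutrophils from 0 to 2, fibroblasts (8) from 5 to 8 and squamous genes from 0 to 1. With vancomycin, array weights called 4903 probe sets in place of 2961, and leaving out 1 array gave 2192 to 3948. The test of a change between treatments (37) called 191 with array weights, 23 with the replicate block and 12 to 84 with 1 array left out; these settings were added after the data were seen. The causes were not tested.

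The replicate number as a block, which without antibiotic is only a shared number, called 3669 probe sets, 3372 of them among the 4020; Hoxb8 had -0.38 (adjusted p = 0.0845) under it. Colon replicate 5 has no ileum array of its number. The number of arrays, and values above 16, limit the precision.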
